A study of Mus musculus with 36 samples.

Results

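The mRNA levels of 10 bile acid and organic anion transporters were followed through the development of the mouse liver. The genes were chosen by symbol from the 21889 genes of the deposited expression table, and all 10 were present: Slc10a1, Slc10a2, Slco1a1, Slco1a4, Slco1b2, Abcb11, Abcb4, Abcc2, Abcc3 and Abcc4. RNA-Seq was done on whole livers of 36 untreated male C57BL/6 mice, bred from C57BL/6J parents, at 12 ages, with 3 mice at each age drawn from several litters of dams kept on standard chow. The ages were GD17.5 (late gestation, labelled Day -2), Day 0 (newborns that had not yet suckled), Days 1, 3, 5, 10, 15 and 20 before weaning, and Days 25, 30, 45 and 60 after it. Day 60 was the reference age of the study. Each value is an average over all cells of a liver, and fewer cells of a type and less RNA per cell cannot be told apart in such samples.

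Bile acids are made in hepatocytes, secreted into bile, taken up again in the ileum and returned to the liver in portal blood. On the sinusoidal side of the hepatocyte, Slc10a1 (Ntcp) takes up conjugated bile acids with sodium, and the organic anion transporting polypeptides Slco1a1, Slco1a4 and Slco1b2 take up bile acids, hormones and drugs without it. On the canalicular side, Abcb11 (Bsep) exports bile salts, Abcb4 (Mdr2) moves phosphatidylcholine into bile and Abcc2 (Mrp2) exports conjugated anions. Abcc3 (Mrp3) and Abcc4 (Mrp4) export anions back to blood, and Slc10a2 (Asbt) is the apical bile acid carrier best known from ileum, bile duct and kidney.

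On NCBI37/mm9, the build used for the files, Slco1a1 (chromosome 6, 141855803 to 141895483, minus strand), Slco1a4 (chromosome 6, 141753961 to 141804720, minus strand) and Slco1b2 (chromosome 6, 141578039 to 141635167, plus strand) are close neighbours. Slc10a1 lies on chromosome 12 (82054172 to 82068971, minus strand), Slc10a2 on chromosome 8 (5085623 to 5105232, minus strand) and Abcb11 on chromosome 2 (69076339 to 69180671, minus strand). Abcb4 lies on chromosome 5 (8893717 to 8959225, plus strand) and Abcc2 on chromosome 19 (43856682 to 43912441, plus strand). Abcc3 lies on chromosome 11 (94204612 to 94254311, minus strand) and Abcc4 on chromosome 14 (118881914 to 119105441, minus strand). Slco1a1 and Slco1a4 have near copies. Of all 100-base windows in their annotated transcripts, 0.814% in Slco1a1 and 1.07% in Slco1a4 occurred unchanged in another Slco1 gene, and the share for Slco1b2 was 0. Reads that lie within these stretches cannot be assigned to 1 gene.

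Promoter sequence is shown for Slc10a1, Slco1b2 and Abcb11, the members whose rise between GD17.5 and Day 0 passed the test described below. It is also shown for the neighbours Slco1a1 and Slco1a4, which moved in opposite directions after weaning. The sequences are from RefSeq on GRCm38.p6, a later build than that of the expression files, and run from 250 bases before to 50 bases after an annotated start. Windows were found for 9 of the 10 members, with none for Abcc3. Both strands were searched for the nuclear receptor half-site AGGTCA and the HNF1 half-site GTTAAT without mismatch. They were also searched, with at most 1 mismatch, for the inverted repeat AGGTCANTGACCT (IR-1), the direct repeat AGGTCANAGGTCA (DR-1) and the HNF1 palindrome, GTTAAT and ATTAAC with 1 base between them. Capitals mark each match, and the repeats overlap the half-sites.
Slc10a1, first start, chr12:80968656-80968955, minus strand: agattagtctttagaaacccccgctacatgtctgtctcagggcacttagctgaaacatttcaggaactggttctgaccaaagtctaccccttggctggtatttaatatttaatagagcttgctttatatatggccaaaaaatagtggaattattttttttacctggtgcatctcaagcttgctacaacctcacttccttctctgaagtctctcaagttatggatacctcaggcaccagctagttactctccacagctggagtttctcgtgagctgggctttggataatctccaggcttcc
Slc10a1, second start, chr12:80968030-80968329, minus strand: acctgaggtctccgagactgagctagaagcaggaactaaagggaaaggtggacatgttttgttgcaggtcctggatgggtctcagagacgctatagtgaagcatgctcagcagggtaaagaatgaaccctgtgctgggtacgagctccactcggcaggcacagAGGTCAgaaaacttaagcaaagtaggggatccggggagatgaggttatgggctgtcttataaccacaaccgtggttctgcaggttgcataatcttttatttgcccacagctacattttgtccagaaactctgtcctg
Slco1b2, chr6:141629268-141629567, plus strand: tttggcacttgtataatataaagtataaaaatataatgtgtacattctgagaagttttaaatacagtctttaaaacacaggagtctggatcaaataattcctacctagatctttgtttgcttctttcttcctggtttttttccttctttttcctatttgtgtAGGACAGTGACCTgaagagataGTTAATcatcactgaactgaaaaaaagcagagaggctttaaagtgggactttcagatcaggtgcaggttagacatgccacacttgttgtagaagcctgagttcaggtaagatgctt
Abcb11, chr2:69342567-69342866, minus strand: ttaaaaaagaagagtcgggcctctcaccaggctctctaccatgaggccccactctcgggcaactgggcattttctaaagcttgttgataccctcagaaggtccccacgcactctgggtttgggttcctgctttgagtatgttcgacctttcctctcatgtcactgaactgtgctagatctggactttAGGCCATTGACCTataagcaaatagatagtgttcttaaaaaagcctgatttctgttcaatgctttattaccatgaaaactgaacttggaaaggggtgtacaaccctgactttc
Slco1a1, chr6:141946913-141947212, minus strand: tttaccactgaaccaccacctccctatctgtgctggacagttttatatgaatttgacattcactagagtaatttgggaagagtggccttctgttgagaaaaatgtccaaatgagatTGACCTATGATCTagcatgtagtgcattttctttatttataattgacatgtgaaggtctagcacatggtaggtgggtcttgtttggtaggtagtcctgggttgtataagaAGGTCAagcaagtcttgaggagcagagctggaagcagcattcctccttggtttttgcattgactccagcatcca
Slco1a4, chr6:141856171-141856470, minus strand: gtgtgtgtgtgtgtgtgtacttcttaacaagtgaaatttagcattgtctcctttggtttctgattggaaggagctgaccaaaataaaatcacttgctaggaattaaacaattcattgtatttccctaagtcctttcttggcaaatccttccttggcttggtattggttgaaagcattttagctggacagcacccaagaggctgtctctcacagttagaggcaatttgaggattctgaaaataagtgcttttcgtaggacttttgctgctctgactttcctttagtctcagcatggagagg

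The Abcb11 window held an IR-1 with 1 mismatch (AGGCCATTGACCT) at -63 to -51 from the start, and the Slco1b2 window another (AGGACAGTGACCT) at -88 to -76. A match of this kind occurred in 27 of 32544 promoter windows of the same length (0.083%). The Slco1b2 window also held the HNF1 half-site at -66 to -61, as did 7.13% of windows. The Slco1a1 window held a DR-1 with 1 mismatch at -134 to -122, present in 0.559% of windows, and AGGTCA at -24 to -19, whereas none of the motifs was found in the Slco1a4 window. The second Slc10a1 window held AGGTCA at -87 to -82, as did 16.2% of windows at some position. Among the windows not shown, that of Slc10a2 held the HNF1 palindrome with 1 mismatch at -224 to -212, present in 0.209% of windows. That of Abcc2 held AGGTCA at -49 to -44, and those of Abcb4 and Abcc4 held none of the motifs. These are matches of letters and not measured binding sites.

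Levels are given as FPKM, in which the fragments of a gene are divided by its exon length and by the mapped fragments of the library. Relative depth, read from the steps between low values of 212 genes, ran from 0.894 to 1.16 across libraries, around an estimated 82100000 fragments. Differences were tested by limma on log2(FPKM + 1) over the 11149 genes whose mean reached 1 FPKM in 1 or more ages. All 10 transporters passed this filter. Slc10a2 did so only through Day 60, the reference age (mean 1.48 FPKM), and Abcc4 only through GD17.5 to Day 5. Higher values of these 2 genes at those ages were thus part of how they entered the tests. Adjusted p-values are Benjamini-Hochberg values over those genes, read at a threshold of 0.05. They set a difference against the spread between mice of an age, estimated for each gene over all 12 ages together. The 10 hepatocyte markers summed to between 12490.5 and 99969 FPKM and were present in every liver. The 8 erythroid markers found had a mean sum that fell from 158139 FPKM before birth (GD17.5) to 72393 FPKM on Day 0 and 682 FPKM on Day 60. With each library scaled to its sum without them, a choice made after seeing the data, the members gave 54 differences from Day 60. FPKM as deposited gave as many, but not all the same ones. Slc10a1 had 4 in place of 3 with this scaling, and Slc10a2 had 10 in place of 11. For FPKM as deposited the shares of all genes that differed are given by age below. They ran from 75.1% at GD17.5 to 0.233% at Day 45, and were not taken for the other such counts in this paragraph. Markers of pancreas (5 genes) differed widely between mice of an age, with sums of 11642, 4.50 and 4.32 FPKM in the 3 mice of Day 60 and of 403 to 3816 FPKM at Day 0, while those of muscle (5 genes) reached 1130 FPKM in Day 0 replicate 1. These 10 genes made up at most 2.81% of the FPKM of a library, in Day 60 replicate 1. Without that mouse the members gave 52 differences from Day 60, with Abcc4 at Day 0 and Abcb11 at Day 5 lost. Without Day 60 replicate 2, at 4.50 FPKM of pancreas markers, they gave 51, with the same 2 and Slc10a2 at Day 45 lost. Without Day 60 replicate 3 they gave 58. Abcc3 between Days 25 and 30 and Days 45 and 60 did not pass without Day 60 replicate 1 or without replicate 2. The part of pancreas RNA in these results was not tested.

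All 10 transporters changed at some age against Day 60 when the adjustment ran over every gene and all 11 ages, as did 90.7% of all tested genes. At GD17.5 all 10 differed from Day 60, and so did 75.1% of all genes. Of these, 9 were lower at GD17.5, compared with 18.6% of all genes, and Abcc4 was higher. The median difference was -2.34 on the log2 scale for the members and 0.56 for all genes. At Day 0, 9 members differed (63.9% of all genes), the exception being Slc10a1. Then 7 differed at Day 1 (65% of genes), 5 at Day 3 (66%), 6 at Day 5 (65.4%) and 3 at Day 10 (46%). Later 4 differed at Day 15 (27.4%), 5 at Day 20 (15.9%) and 3 at Day 25 (7.42%). Slc10a2, which passed the filter only through Day 60, was the 1 member that still differed at Day 30 (3.56%) and at Day 45 (0.233%). All of these comparisons share the 3 mice of Day 60.

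**Figure D1:**
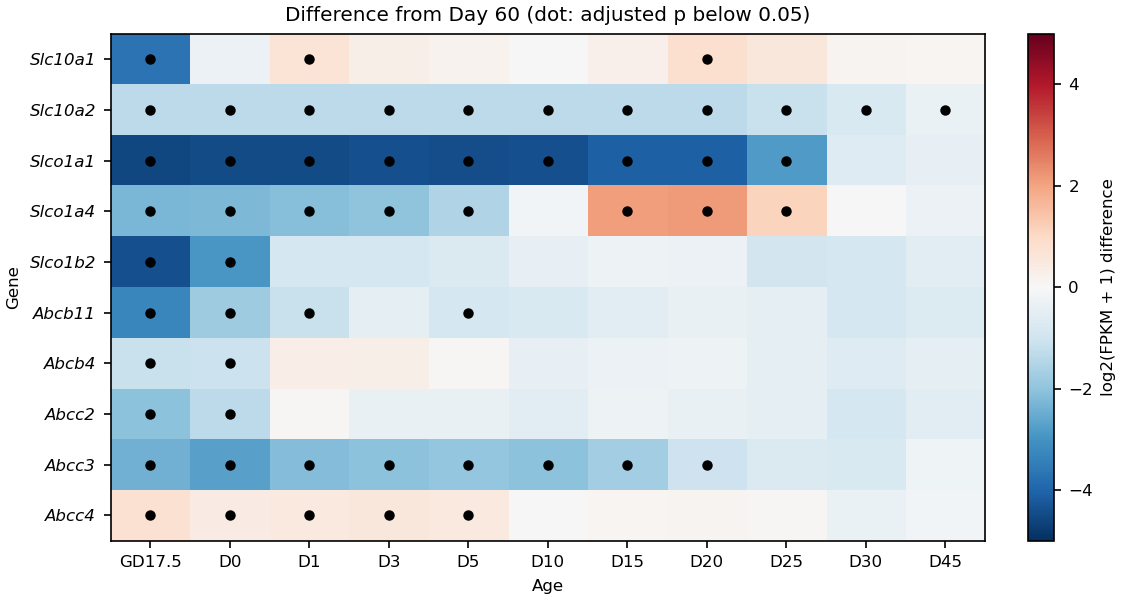
Difference of each age from Day 60 in log2(FPKM + 1) for the 10 transporters (colour, means of 3 mice per age), with a dot where the limma adjusted p was below 0.05. All 10 genes have a dot at GD17.5, and the dots of Slc10a2, Slco1a1 and Abcc3 last to Day 45, Day 25 and Day 20.

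Between successive ages 17 of 110 differences of the members passed (15.5%), and 14.6% of those of all genes did. From GD17.5 to Day 0, 3 members changed and all rose (Slc10a1, Slco1b2 and Abcb11), while 54.6% of all genes changed and 13.1% rose. From Day 0 to Day 1, 4 members changed and all rose (Slc10a1, Slco1b2, Abcb4 and Abcc2), while 31.6% of all genes changed and 23.7% rose. From Day 1 to Day 3 (11.3% of all genes), from Day 3 to Day 5 (3.2%) and from Day 15 to Day 20 (1.99%), 0 members passed in limma. By the unadjusted limma p, 1 member (Slc10a1) was below 0.05 from Day 1 to Day 3, 0 from Day 3 to Day 5 and 2 (Slc10a1 and Abcc3) from Day 15 to Day 20. From Day 5 to Day 10, Slco1a4 rose and Abcc4 fell (2 members, 36.3% of genes), and from Day 10 to Day 15 Slco1a4 rose again (1 member, 12%). From Day 20 to Day 25, Slco1a1 rose and Slco1a4 fell (2 members, 7.19%), and from Day 25 to Day 30 both did so again and Slc10a2 rose (3 members, 1.64%). Slc10a2 was the 1 member to rise from Day 30 to Day 45 (1.03%) and from Day 45 to Day 60 (0.233%).

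**Figure D2:**
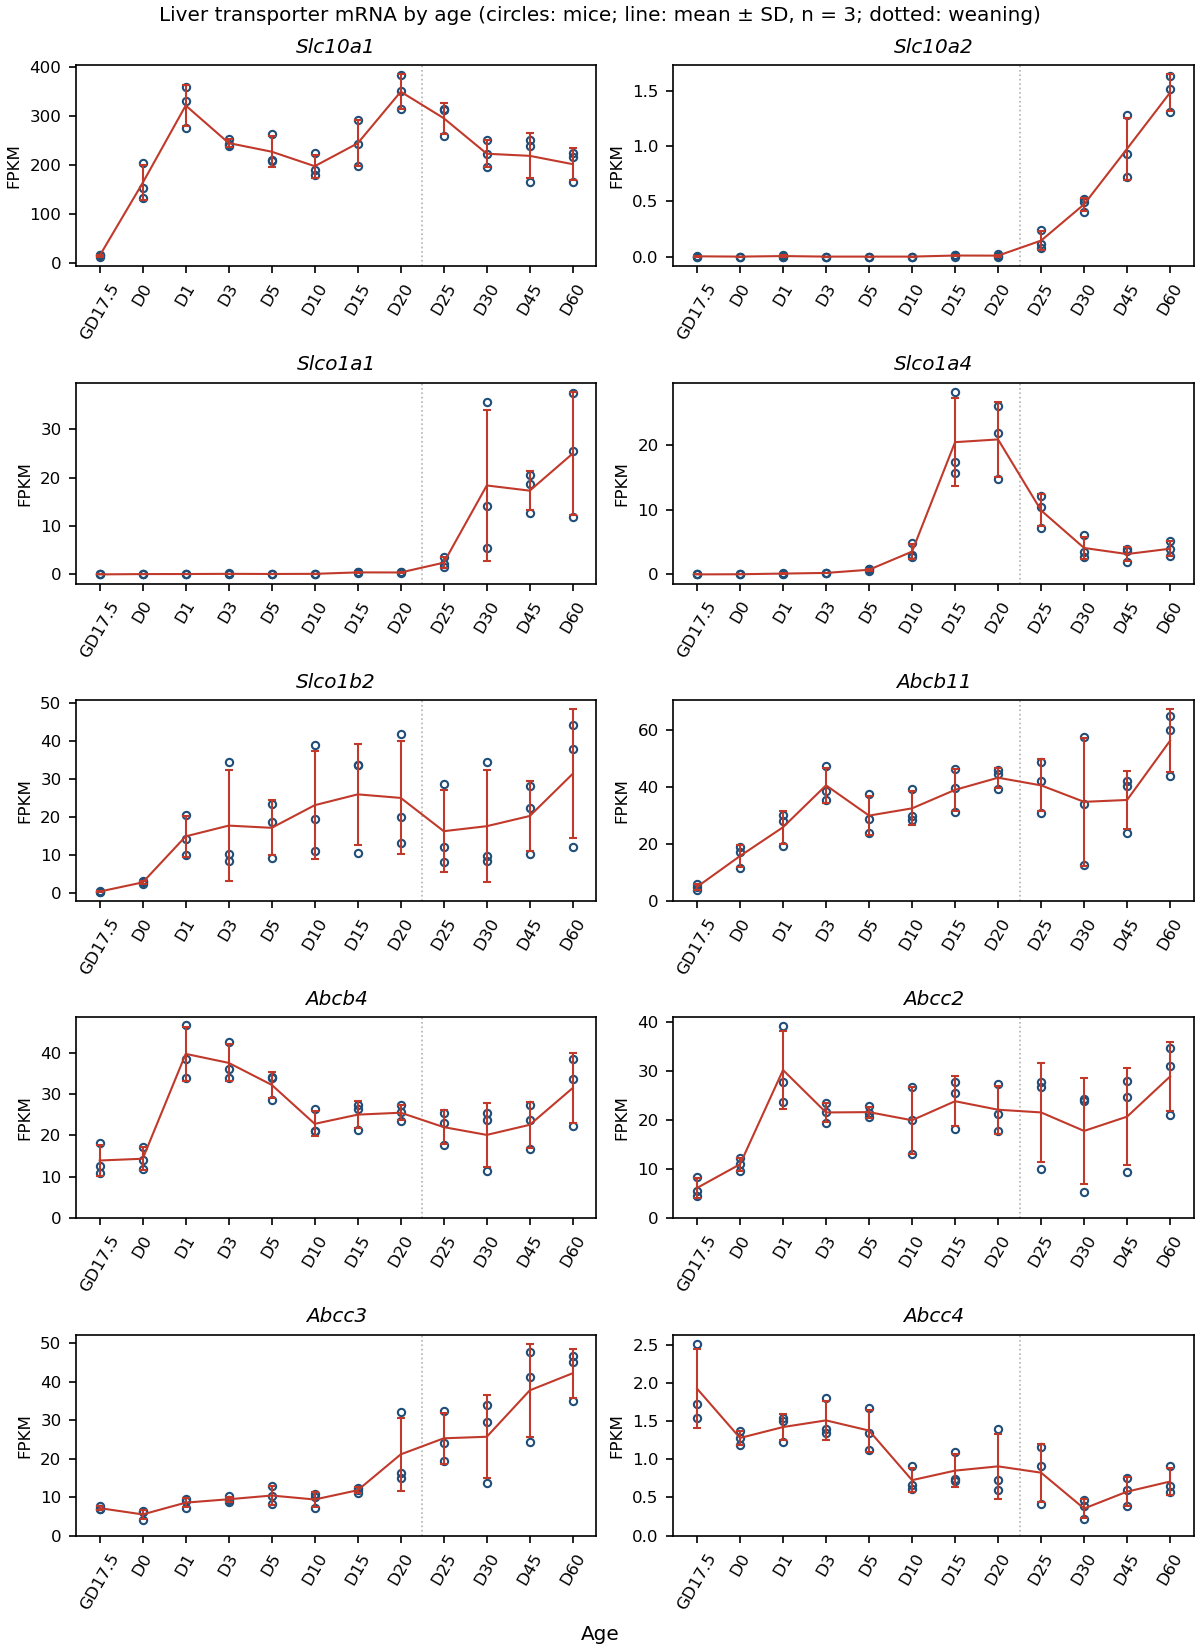
FPKM of the 10 transporters at the 12 ages, with 1 panel per gene, circles for single mice, a line through the means and bars of 1 SD (n = 3). Mean Slc10a1 is 14.5 FPKM before birth (GD17.5) but 321 FPKM on Day 1, Slco1a4 is highest at Days 15 and 20, and Slc10a2 and Slco1a1 stay low until Day 20.

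Slc10a1, the sodium-dependent uptake carrier, showed the largest log2 change of the 10 between GD17.5 and Day 0. The mice had 15.4, 11.9 and 16.3 FPKM at GD17.5, then 203, 153 and 133 FPKM at Day 0 and 358, 329 and 275 FPKM at Day 1. The 3 ages did not overlap. The mean rose 11.2-fold to Day 0 (log2 difference 3.39, standard error 0.18, limma adjusted p = 5.3e-15), in newborns that had not suckled, and 1.97-fold more by Day 1 (log2 difference 0.99, adjusted p = 0.000132). From Day 0 onwards the means stayed between 163 and 349 FPKM, which was 81.1% to 174% of Day 60. A second high point came at Day 20 with 313, 350 and 384 FPKM, all above the 224, 216 and 164 FPKM of Day 60 (log2 difference 0.80, limma adjusted p = 0.00167). Day 1 was also above Day 60 (log2 difference 0.68, adjusted p = 0.00152). Along with the rise from GD17.5 to Day 0, 9 of the 10 hepatocyte markers rose, from a sum of 12490.5 to 14231 FPKM to one of 60680 to 75289 FPKM, and all 8 erythroid markers fell. The part of either list in the change of Slc10a1 was not tested.

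Slco1b2, an organic anion carrier found mainly in hepatocytes, was the other uptake gene whose rise from GD17.5 to Day 0 passed the threshold. At GD17.5 the mice had 0.402, 0.360 and 0.292 FPKM, then 3.09, 2.37 and 2.82 FPKM at Day 0 and 20.5, 9.89 and 14.2 FPKM at Day 1. The 3 ages again did not overlap. The steps were 7.85-fold (log2 difference 1.47, standard error 0.59, limma adjusted p = 0.0379) and 5.38-fold (log2 difference 2.03, adjusted p = 0.0112). The first did not pass when any of the 6 mice of GD17.5 and Day 0 was left out (adjusted p from 0.0584 to 0.0844) or with the scaling without erythroid markers (adjusted p = 0.051), and the second did not pass without Day 1 replicate 1 (adjusted p = 0.0588). From Day 3 onwards the mice of an age lay far apart. At Day 30 they had 8.33, 34.5 and 9.82 FPKM and at Day 60 they had 37.9, 44.0 and 12.0 FPKM. No age after Day 0 differed from Day 60 past the threshold.

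The neighbouring genes Slco1a4 and Slco1a1, both carriers of bile acids and steroid conjugates, were high at different ages. Slco1a4 was listed at 0 in all 3 mice at GD17.5, and its means were 0.0227, 0.125 and 0.225 FPKM at Days 0, 1 and 3. At Day 5 the mice had 0.803, 0.792 and 0.553 FPKM. With a pseudocount of 0.1 in place of 1, Slco1a4 passed in the steps to Day 1 (log2 difference 0.87, limma adjusted p = 0.0303) and Day 5 (1.32, adjusted p = 0.0158). By Day 10 it rose to 4.86, 2.66 and 3.03 FPKM (4.91-fold, log2 difference 1.37, limma adjusted p = 5.76e-05) and by Day 15 to 17.3, 28.2 and 15.7 FPKM (5.81-fold, log2 difference 2.23, adjusted p = 1.08e-07). Neither step had overlapping mice. At Day 20 the mice had 26, 21.8 and 14.7 FPKM, 5.26 times the mean of Day 60 (log2 difference 2.13, limma adjusted p = 7.99e-08). After weaning the gene fell to 10.4, 7.18 and 12.0 FPKM at Day 25 (log2 difference -0.996, adjusted p = 0.0076) and to 2.71, 6.03 and 3.49 FPKM at Day 30 (log2 difference -1.13, adjusted p = 0.00635), again without overlap. The first fall did not pass without Day 20 replicate 1 or Day 25 replicate 2 (adjusted p from 0.0602 to 0.0771), and the second not without Day 25 replicate 3 or Day 30 replicate 1 (adjusted p from 0.072 to 0.0813). The means of Days 30, 45 and 60 were 4.08, 3.14 and 3.96 FPKM.

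Slco1a1 did not exceed 0.483 FPKM up to Day 20, while Slco1a4 rose. At GD17.5 its mice had 0.00288 to 0.00488 FPKM, which is 0.923 to 1.57 fragments by the estimated depth. From Day 0 to Day 10 the values were 0.0327 to 0.190 FPKM, or 10.5 to 60.8 fragments. At Day 15 they were 0.432, 0.481 and 0.332 FPKM, or 106 to 154 fragments, above every mouse of Day 10. The step to Day 15 passed with a pseudocount of 0.1 (log2 difference 1.29, limma adjusted p = 0.0472) but not with 1. At Day 20 the values were 0.483, 0.399 and 0.317 FPKM. After weaning the mice had 3.67, 1.51 and 2.09 FPKM at Day 25 (6.07-fold, log2 difference 1.24, standard error 0.36, limma adjusted p = 0.0278) and 5.41, 35.6 and 14.1 FPKM at Day 30 (7.59-fold, log2 difference 2.20, adjusted p = 0.00018). Each age was above the one before in every mouse. The step to Day 25 did not pass without any single mouse of Day 20 or without Day 25 replicates 1 or 3 (adjusted p from 0.056 to 0.138). At Day 60 the mice had 25.6, 37.5 and 12.0 FPKM, a 3.13-fold spread within the age, and Day 30 did not differ from Day 60 past the threshold.

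The ratio of the neighbours was taken within each mouse, and each age had different mice. Slco1a1 FPKM was 0.0195 ± 0.00186 times that of Slco1a4 at Day 20 (SD, n = 3), 0.246 ± 0.0939 times at Day 25, 3.98 ± 1.96 times at Day 30 and 6.97 ± 4.04 times at Day 60. Slco1a1 was the lower of the pair in every mouse from Day 1 to Day 25 and the higher in every mouse from Day 30 to Day 60.

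**Figure D3:**
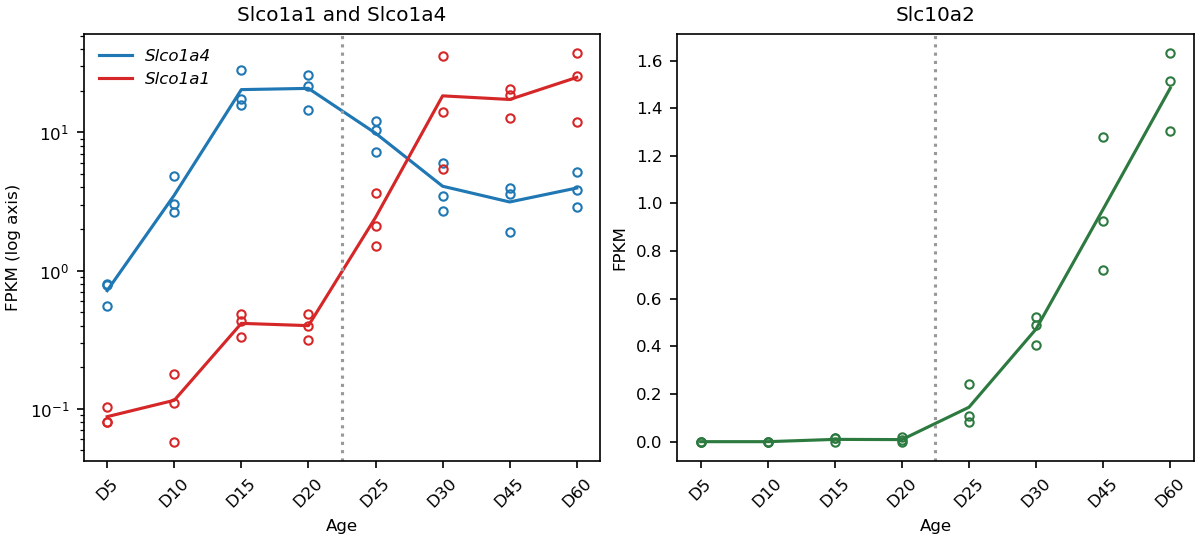
FPKM of Slco1a4 and Slco1a1 on a log axis (left) and of Slc10a2 on a linear axis (right) from Day 5 to Day 60, with ages evenly spaced, circles for mice, lines through the means of 3 and a dotted line between ages before and after weaning. The lines of the neighbours cross between Day 25, with means of 9.88 FPKM for Slco1a4 and 2.42 FPKM for Slco1a1, and Day 30, with 4.08 and 18.4 FPKM, while Slc10a2 climbs from Day 25 to Day 60.

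Slc10a2 was the last of the 10 to appear. It was listed at 0 in 18 of the 36 livers, and in livers up to Day 20 it did not exceed 0.0193 FPKM, or 2.58 fragments. The mice then had 0.242, 0.110 and 0.0821 FPKM at Day 25 (11 to 32.4 fragments), 0.490, 0.524 and 0.405 FPKM at Day 30, 0.928, 1.28 and 0.723 FPKM at Day 45 and 1.31, 1.52 and 1.63 FPKM at Day 60 (175 to 218 fragments). Each of these ages was above the one before in every mouse. Only the mean of Day 60 reached the filter of 1 FPKM (0.976 FPKM at Day 45). A high Day 60 was thus part of how the gene entered the tests. The steps to Day 30 (log2 difference 0.37, limma adjusted p = 0.00299), Day 45 (0.42, adjusted p = 0.00184) and Day 60 (0.34, adjusted p = 0.0369) passed, while that from Day 20 to Day 25 did not (0.18, adjusted p = 0.151). At such levels log2(FPKM + 1) understates a change, and with a pseudocount of 0.1 the step to Day 25 passed (1.12, adjusted p = 0.000434) and that to Day 60 did not (0.58, adjusted p = 0.436). The step to Day 60 did not pass either without Day 3 replicate 2, Day 15 replicate 2, Day 45 replicates 1 or 3 or Day 60 replicates 2 or 3, each left out in turn (adjusted p from 0.0501 to 0.574).

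Tissues known to express Slc10a2 were checked by their markers in the livers of Days 25 to 60. The ileal genes Fabp6 and Cdx2 were at most 0.0335 and 0.0065 FPKM there, the kidney gene Slc34a1 at most 0.0544 FPKM, and Slc12a1 and Aqp2 were listed at 0. Slc5a1 and Vil1, which intestine and kidney share, were in the range of Slc10a2, at 0.0896 to 0.302 FPKM and up to 0.292 FPKM. Mean Slc5a1 was 0.206 FPKM on Day 20 and 0.279 FPKM on Day 60, and mean Vil1 was 0.803 FPKM before birth and 0.148 FPKM at Day 60. The sum of the 10 intestine and kidney markers, 9.41 to 22.2 FPKM, was almost all Fabp2, a fatty acid binding protein (9.03 to 22 FPKM). The 8 bile duct markers summed to between 13 and 19.3 FPKM at these ages and to 15.7 to 20.2 FPKM at GD17.5, Cftr stayed below 0.1 FPKM throughout, and all 6 that were tested were lower at late than at early ages, where the median of all genes was also lower (-0.54). After upper quartile scaling 3 of these 6 were still lower and Slc4a2 was higher. Their part in the rise of Slc10a2 was not tested. In 1 liver, Day 1 replicate 2, kidney markers stood apart, with Slc34a1 at 29.4 FPKM and at most 1.39 FPKM in any other liver. Slc10a2 was 0.0143 FPKM in that liver, and 0 in the other 2 of Day 1.

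Abcb11, the bile salt export pump, was the canalicular member whose rise from GD17.5 to Day 0 passed the threshold. At GD17.5 the mice had 6.00, 4.02 and 4.80 FPKM, followed by 11.5, 18.9 and 17.1 FPKM at Day 0, 30.4, 28.1 and 19.3 FPKM at Day 1 and 47.6, 38.8 and 35.6 FPKM at Day 3. Each age was above the one before in every mouse. The step to Day 0 was 3.20-fold (log2 difference 1.49, standard error 0.33, limma adjusted p = 0.000412), and those to Day 1 (0.68, adjusted p = 0.106) and Day 3 (0.64, adjusted p = 0.23) did not pass. Without Day 30 replicate 1, whose spread enters the fit of all ages, the step to Day 1 passed (adjusted p = 0.0318). Day 60 had the highest mean, with 60.1, 65.2 and 43.9 FPKM in the 3 mice, and GD17.5 and Days 0, 1 and 5 were lower. At Day 0 Abcb11 was at 28% of its Day 60 mean. Slc10a1 FPKM, uptake over export, was 2.97 ± 0.411 times that of Abcb11 at GD17.5, 11.2 ± 5.63 times at Day 0, 12.6 ± 1.44 times at Day 1 and 3.59 ± 0.242 times at Day 60 (SD, n = 3).

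Abcb4 and Abcc2 rose between Day 0 and Day 1. Abcb4, the phospholipid transporter, had 18.1, 11 and 12.7 FPKM at GD17.5, overlapping the 17.3, 14.1 and 11.8 FPKM of Day 0, and 46.7, 38.5 and 33.9 FPKM at Day 1 (2.76-fold, log2 difference 1.41, limma adjusted p = 5.24e-05). Day 1 had its highest mean, 39.7 FPKM, and the means from Day 10 to Day 45 were 20.1 to 25.5 FPKM. Abcc2, the exporter of conjugates such as bilirubin glucuronides, had 12.3, 11 and 9.68 FPKM at Day 0 and 39.1, 27.8 and 23.6 FPKM at Day 1 (2.74-fold, log2 difference 1.35, adjusted p = 0.0143). This step did not pass without Day 0 replicate 3 or Day 1 replicate 1 (adjusted p from 0.0584 to 0.0764). At GD17.5 Abcc2 had 8.51, 4.53 and 5.52 FPKM, below every mouse of Day 0 (log2 difference 0.77, limma adjusted p = 0.113). The step of Abcc2 to Day 0 passed after upper quartile scaling (adjusted p = 0.0323) and without Day 30 replicate 1 (0.0493). It also passed with the library trends taken off, as given below. Both genes were lower at GD17.5 and Day 0 than at Day 60, and no other age passed for either. The ratio of Abcb11 to Abcb4 FPKM was 0.357 ± 0.0236 at GD17.5, 1.15 ± 0.424 at Day 0, where the mice lay far apart, and 0.650 ± 0.0796 at Day 1 (SD, n = 3). Day 3 had 1.08 ± 0.0351 and Day 5 had 0.927 ± 0.159, followed by 1.42 ± 0.0714 on Day 10 and 1.82 ± 0.230 on Day 60.

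The basolateral exporters differed in course. Abcc3 was between 4.16 and 12.9 FPKM in every liver up to Day 15 and above that range in every later one. The mice had 32.1, 15.1 and 16.3 FPKM at Day 20 and 45.2, 46.6 and 35 FPKM at Day 60. No single step passed, but each age up to Day 20 was lower than Day 60, by a log2 difference of -2.73 at Day 0 and of -1.03 at Day 20 (limma adjusted p = 0.00907). Relative to Abcc2, its canalicular relative, Abcc3 FPKM was 1.22 ± 0.300 times as high at GD17.5, 0.516 ± 0.164 times at Day 0 and 0.292 ± 0.0454 times at Day 1, the lowest of the 12 ages (SD, n = 3). The ratio was 1.98 ± 0.493 at Day 45 and 1.49 ± 0.176 at Day 60, and Day 60 overlapped GD17.5.

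Abcc4 was highest before birth. The mice had 2.51, 1.54 and 1.72 FPKM at GD17.5, the means stayed at 1.28 to 1.51 FPKM from Day 0 to Day 5, and Day 10 had 0.662, 0.906 and 0.612 FPKM, below every mouse of Day 5 (log2 difference -0.46, limma adjusted p = 0.0208). GD17.5 and Days 0 to 5 were all above Day 60, by log2 differences of 0.42 to 0.77. These were also the only ages through which Abcc4 passed the filter. The step to Day 10 did not pass without Day 5 replicate 3 or Day 10 replicates 1 or 3 (adjusted p from 0.054 to 0.105), nor after upper quartile scaling (-0.21, adjusted p = 0.413), which left 1 age above Day 60 in place of 5.

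Over longer periods, 8 members differed between GD17.5 to Day 5 and Days 25 to 60, where 85.7% of all genes did, and 7 of them were higher late, compared with 15.5% of all genes. The median difference was 0.88 for the members and -0.54 for all genes. Slco1a1 (3.5), Slco1a4 (2.25), Abcc3 (1.82), Slco1b2 (1.38), Abcb11 (0.99), Slc10a1 (0.78) and Slc10a2 (0.76) were higher on the log2 scale. Abcc4 was lower (-0.64, limma adjusted p = 3.57e-09), which is -0.10 relative to the median of all genes. Abcb4 (-0.10) and Abcc2 (0.32) did not pass. With a common upper quartile the median of all genes was -0.14, and both then passed as higher late, Abcb4 by 0.51 (adjusted p = 3.46e-05) and Abcc2 by 0.92. Abcc4 still passed as lower with this scaling (-0.33, limma adjusted p = 8.17e-05). It had passed the filter only through the early ages, and Slc10a2 only through Day 60.

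Around weaning, 4 members differed between Days 10 to 20 and Days 25 to 60, where 57.3% of all genes did. Slco1a1 (log2 difference 3.22), Abcc3 (1.18) and Slc10a2 (0.75) were higher after weaning and Slco1a4 was lower (-1.14). Between Days 25 and 30 and Days 45 and 60, where 7.94% of all genes differed, 4 members passed: Slco1a1 (1.54), Slc10a2 (0.77) and Abcc3 (0.66) were higher at the older ages and Slco1a4 was lower (-0.71). Abcc3 (limma adjusted p = 0.035) did not pass there without any 1 of Day 25 replicates 1 or 2, Day 30 replicate 1, Day 45 replicates 1 or 2 or Day 60 replicates 1 or 2 (adjusted p from 0.0581 to 0.141). It did not pass with values scaled to a common sum (adjusted p = 0.0635), also without erythroid markers (0.0669), or with no filter on low values (0.061).

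The spread between mice of an age followed the libraries for several members. Within ages, libraries differed in how FPKM ran with transcript length and GC content over 4471 genes. Day 30 replicate 1 had the lowest length trend, with a log2 change of -0.33 per doubling of length, next to -0.24 in Day 25 replicate 2 and 0.18 in the highest library. It was also the lowest of its age for Abcb11 (12.6 against 57.8 and 34.3 FPKM), Abcc2 (5.27 against 24.3 and 23.8 FPKM) and Abcb4 (11.4 against 25.4 and 23.6 FPKM). Over the 36 libraries the deviation of Abcc2 from its age mean had a Pearson r of 0.94 with the length trend, Abcb11 0.84 and Abcb4 0.81, and Slco1b2 had -0.85 with the GC trend, as a description of points that share their libraries. With both trends taken off within ages, a choice made after seeing the data, the residual SD was 0.284 in place of 0.505 for Abcc2, 0.221 in place of 0.399 for Abcb11 and 0.498 in place of 0.728 for Slco1b2. The steps that passed were then 26 in place of 17, or 23.6% of those of the members, and 24.1% of those of all genes passed. Among them were Abcb11 to Day 1 (adjusted p = 0.00284) and Day 3 (adjusted p = 0.00956), Abcc2 to Day 0 (adjusted p = 0.00462) and Abcc3 to Day 20 (adjusted p = 0.0132). This removal lowers the spread within ages but leaves any trend between ages in the age means. With the trends taken off across all libraries, also a choice made after seeing the data, 21 steps of the members passed. The share of all genes was not taken with that setting, so this count cannot be set beside it. Abcc2 to Day 0 and Abcc3 to Day 20 were among these, while Abcb11 to Day 1 and to Day 3 were not.

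**Figure D4:**
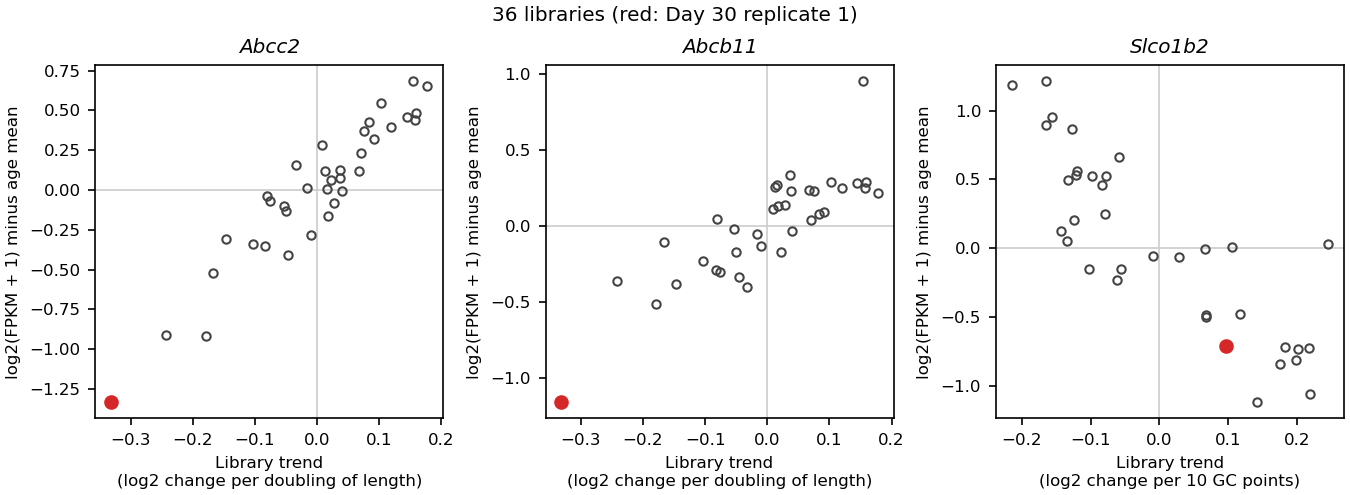
Deviation of Abcc2, Abcb11 and Slco1b2 from the mean of their age in log2(FPKM + 1) against the trend of the library with transcript length (Abcc2, Abcb11) or GC content (Slco1b2), with 1 point per library (36) and Day 30 replicate 1 in red. Abcc2 and Abcb11 run upward (r = 0.94 and 0.84) and Slco1b2 downward (r = -0.85).

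Other genes of the pathway were taken from lists by role and compared between GD17.5 to Day 5 and Days 25 to 60. In this comparison 85.7% of all genes passed, 15.5% passed as higher late, and the median of all genes was -0.54. Of 13 other sinusoidal and basolateral carriers, 8 were tested, of which 4 rose, 3 fell and 1 did not pass (median log2 difference 0.39). Slc22a7, an organic anion transporter, was listed at 0 in all mice of GD17.5 and Day 0 and had 72.7 ± 26.1 FPKM at Day 15 and 16.2 ± 8.48 FPKM at Day 60 (4.17, limma adjusted p = 8.17e-21). Slco2b1, an organic anion transporting polypeptide, had a mean of 0.170 ± 0.0252 FPKM at GD17.5, and Day 60 had 31.5 ± 1.97 FPKM (4.13). The exporters Abcc5 (-1.34) and Abcc1 (-0.86), relatives of Abcc4, fell, also after upper quartile scaling (-1.06 and -0.62). Ostb (Slc51b), a subunit of the basolateral bile acid exporter, had 5.23 ± 1.13 FPKM at Day 1 and 0.797 ± 0.363 FPKM at Day 60 and was lower at Days 25 to 60 than at Days 10 to 20 (-1.31, limma adjusted p = 8.08e-11). Its late minus early difference (-0.53) passed as lower but differed by 0.02 from the median of all genes. That difference did not pass after upper quartile scaling (-0.15, limma adjusted p = 0.165). The other subunit, Osta, stayed under the filter, with its highest mean before birth (0.519 FPKM).

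Of 9 other canalicular exporters and flippase subunits, 7 were tested, of which 4 rose, 2 fell and 1 did not pass (median log2 difference 0.49). Abcg5, which exports sterols together with Abcg8, had 0.197 ± 0.0548 FPKM before birth (GD17.5), peaked at 95.8 ± 13.7 FPKM (Day 15) and was down to 18.3 ± 0.784 FPKM by Day 25 (late minus early 1.18). Slc47a1, a cation exporter, rose (0.77). Abcg2, an exporter of sulfated conjugates, had 62.6 ± 9.83 FPKM before birth (GD17.5), 8.79 ± 2.19 FPKM by Day 20 and 23.1 ± 5.53 FPKM by Day 60 (-0.89, limma adjusted p = 3.38e-10), and still fell after upper quartile scaling (-0.28). The copper ATPase Atp7b (-0.50) also passed as lower, but differed by 0.05 from the median of all genes and did not pass after upper quartile scaling (-0.17, limma adjusted p = 0.187).

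Of 22 sensors and regulators, 19 were tested, of which 10 rose, 2 fell and 7 did not pass (median log2 difference 0.29). Nr1h4 (Fxr), the bile acid receptor that activates Abcb11, rose by 0.90 (limma adjusted p = 6.01e-11). Its target Nr0b2 (Shp), a repressor of bile acid synthesis, had 0.210 ± 0.0580 FPKM at GD17.5, 2.41 ± 0.676 FPKM at Day 0, 7.96 ± 1.54 FPKM at Day 1 and 20.4 ± 2.60 FPKM at Day 60 (late minus early 1.70). Ghr, the growth hormone receptor, went from 6.71 ± 1.58 FPKM to 102 ± 12.0 FPKM (2.61). Klb, the co-receptor for Fgf15 (-0.69), and Nfe2l2, a factor of the oxidative stress response (-0.50), passed as lower. They differed from the median of all genes by -0.15 and 0.04, and with upper quartile scaling Klb did not pass (-0.18) and Nfe2l2 turned to 0.06 (limma adjusted p = 0.694).

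Of 15 bile acid synthesis and conjugation enzymes, 14 were tested, of which 12 rose, 1 fell and 1 did not pass (median log2 difference 1.22). Cyp7b1, the oxysterol hydroxylase of the alternative pathway, had 1.45 ± 0.374 FPKM at Day 20, 3.51 ± 0.339 FPKM at Day 25 and 48.5 ± 11.8 FPKM at Day 30 (late minus early 4.43, limma adjusted p = 8.93e-22), the ages at which Slco1a1 rose. Cyp27a1, which starts that pathway, had 2.23 ± 0.229 FPKM before birth (GD17.5), and 221 ± 19.5 FPKM by Day 60 (3.72). Cyp7a1, the rate-limiting enzyme of the classic pathway, had 0.186 ± 0.0779 FPKM at GD17.5, 6.05 ± 2.57 FPKM at Day 20 and 5.15 ± 0.709 FPKM at Day 60 (0.67, adjusted p = 0.000154). Cyp39a1, an oxysterol hydroxylase, passed as lower (-0.78) but not after upper quartile scaling (-0.19, adjusted p = 0.172), and was highest at Day 1 with 50.2 ± 10.9 FPKM.

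**Figure D5:**
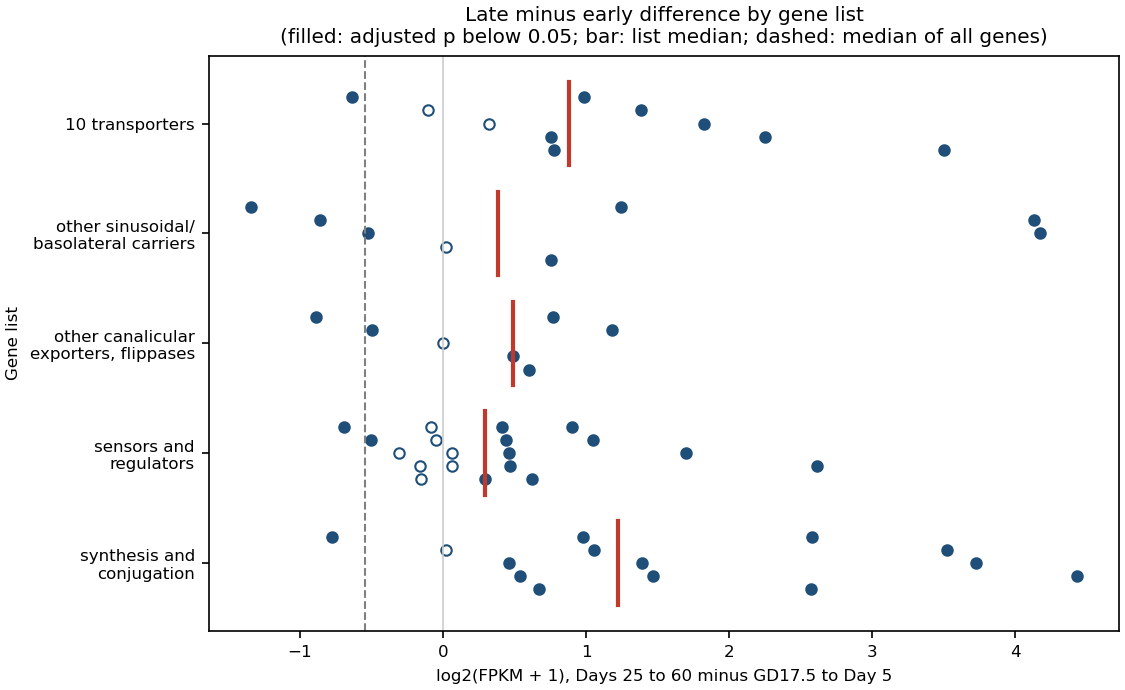
Difference between Days 25 to 60 and GD17.5 to Day 5 in log2(FPKM + 1) for each tested gene among the 10 transporters and 4 pathway lists, filled where the limma adjusted p was below 0.05, with bars at list medians and a dashed line at the median of all genes. The list medians run from 0.29 for regulators to 1.22 for synthesis enzymes, with 0.88 for the transporters and -0.54 for all genes.

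FPKM is per length, so levels were set beside each other within an age. The trends of the libraries with transcript length and GC content, given above, limit such comparisons between genes. At GD17.5 Slc10a1 (14.5 FPKM) and Abcb4 (14 FPKM) led and overlapped. At Day 20 Slc10a1 (349 FPKM) stood above Abcb11 (43.4 FPKM), and Abcb11 stood above Abcb4 (25.5 FPKM), Abcc2, Abcc3 and Slco1a4, but not above Slco1b2, of which 1 mouse had 41.7 FPKM. At Day 60 Slc10a1 (201 FPKM) again stood apart, and Abcb11 (56.4 FPKM), Abcc3 (42.3), Abcb4 (31.5), Slco1b2 (31.3), Abcc2 (28.9) and Slco1a1 (25.0) each overlapped the next. Below them, without overlap, came Slco1a4 (3.96 FPKM), Slc10a2 (1.48 FPKM) and Abcc4 (0.709 FPKM). Of the summed FPKM of the sinusoidal uptake genes, Slc10a1 made up 97.6% ± 0.610 at GD17.5 and 77.9% ± 6.67 at Day 60 (SD, n = 3).

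The tested genes most like each member over the 12 age means were found by Pearson r, given as a description. They were Hrg and Apoa5 for Slc10a1 (both 0.98), Nat8 (0.996) and Slc15a5 (0.995) for Slc10a2, and Gm5631 (0.999) and Mup12 (0.995) for Slco1a1. Mup12 belongs to the major urinary proteins, near copies that share reads, so its own level is uncertain. Slco1a4 had Arhgef37 and Pion (both 0.96), Slco1b2 had Pttg1ip (0.99) and Mmd (0.98), and Abcb11 had Hsd3b7, a bile acid synthesis enzyme, and Gch1 (both 0.97). Abcb4 had Cept1 (0.96) and Cryz (0.95), Abcc2 had Farp2 (0.98) and Acad11 (0.97), Abcc3 had Cyb5b and Pigr (both 0.98), and Abcc4 had Anxa9 and Eif3c (both 0.97).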

How the data were processed

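Poly-A libraries of liver RNA from 36 mice were sequenced as paired reads. The authors mapped reads to NCBI37/mm9 with TopHat and estimated abundances with Cufflinks (versions 1.2.0 and 1.0.3 in the submitters' processing notes). The deposited values are FPKM per gene symbol, 1 column per mouse, so depth was estimated from the steps between low values.

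FPKM were tested as log2(FPKM + 1) with limma 3.58.1 in R 4.3.3, with 1 mean per age over all 36 mice, a mean-variance trend, a filter of 1 FPKM and Benjamini-Hochberg adjustment within each comparison at a threshold of 0.05. The code was tested on simulated data. Fold changes are ratios of mean FPKM. Dunnett's comparison with Day 60, the test used by the study, was an alternative. Positions, lengths and GC content came from GENCODE M1, with GC content for 97.6% of tested genes. Members and lists were chosen with earlier results of these data known. The text names all members, for each pathway list at most 2 genes with the largest rise and 2 with the largest fall past the threshold between GD17.5 to Day 5 and Days 25 to 60, Nr1h4, Nr0b2, Cyp7a1, Slc51b, Abcg2 and Slco2b1 whatever their values, and the 2 genes most like each member. Osta and the markers of other tissues named singly were chosen after their values were seen.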

Additional observations from a re-analysis of the deposited data

How the results depend on the processing

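With the replicate number as a block, all 150 single differences of the members that were recomputed (GD17.5 against Day 60, 11 steps and 3 comparisons of periods) kept direction and side of the threshold, and the block gave 55 differences from Day 60, 17 steps and 8, 4 and 4 over periods. Deviations of same-numbered mice had a median r of 0.13 (lowest -0.68; 104 of 198 pairs over 0.1), those of other-numbered mice -0.05 (147 of 396 over 0.1), and 19 of 36 libraries were most like their own number. This is a hint from the data, and since not every pair was over 0.1 and the labels name no shared litter or batch, the numbers were not taken as pairs. Leaving out 1 mouse at a time kept 5352 of 5400 values, with 34 calls lost and 14 gained, and the counts ran from 51 to 59 against Day 60, 15 to 18 for steps and 8 to 9, 4 to 5 and 3 to 4 over periods, with 10 to 10 for change at any age. Dunnett's comparison gave 52 differences from Day 60. For these alternatives the shares of all genes against Day 60 and over steps were not taken, so their counts describe the members alone. With the GC and length trends taken off within ages 26 steps passed in place of 17, beside the smaller residual SD of the genes named above. These 26 were 23.6% of the steps of the members, and 24.1% of those of all genes passed. With the trends taken off across all libraries 21 steps passed, and the share of all genes was not taken. Abcb4 between early and late ages went from -0.10 to 0.51 with a common upper quartile and to 0.30 with the trends taken off across all libraries, and the cause was not tested. With no filter on low values Slco1b2 from GD17.5 to Day 0 (adjusted p = 0.0615), Slco1a1 from Day 20 to Day 25 (0.0555) and Abcc3 over the last periods (0.061) did not pass, and Slc10a2 from Day 45 to Day 60 did not pass in 6 alternatives other than leaving out mice, each with its direction kept. Removal of these trends and scaling without erythroid markers were chosen after seeing the data. Depth limits Slc10a2 up to Day 20, and Slco1a1 and Slco1a4 around birth, where a library holds few fragments of them.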
